A study of Mus musculus with 6 samples.

Results

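The 10 genes described here act in cytokinesis, the last step of cell division, or belong to the Iqgap family of scaffold proteins: Ect2, Racgap1, Rhoa, Anln, Cit, Prc1, Cep55, Iqgap1, Iqgap2 and Iqgap3. They were found by their GENCODE M21 gene names through the versioned Ensembl identifiers of the count tables, and all 10 were present among the 55450 gene identifiers. Bulk RNA-Seq was performed on primary hepatocytes of C57BL/6 mice that were fed a normal diet and labelled as 10 to 12 weeks old. Of the 6 libraries, 3 came from liver at 0 h and 3 from liver 48 h after partial hepatectomy (PHx), in which the larger part of the liver is cut away, and each library was a separate hepatocyte preparation. The 0 h livers were undamaged rather than sham operated, so effects of PHx and of surgery itself cannot be told apart. The hepatocytes were obtained by collagenase perfusion, and both time points carried no transgene or drug treatment in the labels.

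Dividing cells separate by a contractile ring of actin and myosin whose position is set by the central spindle, a bundle of microtubules between the parting chromosomes. There the exchange factor Ect2, recruited by Racgap1 and its kinesin partner Kif23, loads the GTPase RhoA with GTP, and RhoA switches on formins and myosin. Anln ties the ring together, Prc1 bundles the spindle microtubules, and Cit and Cep55 act in the midbody, the last bridge between daughter cells, where Cep55 recruits the machinery of abscission. Hepatocytes are known for skipping this step: when cytokinesis fails or is left out, a cell with double the genome, often with a pair of nuclei, results, and much of the adult mouse liver is polyploid for this reason. Iqgap proteins bind actin, calmodulin and the GTPases Cdc42 and Rac1, with Iqgap1 found in most tissues, Iqgap2 best known from liver and Iqgap3 from dividing cells.

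The libraries held 31419443 to 36346220 counts on genes (median 32649596), and the detection floor, set at 3 counts, corresponded to 0.0839 to 0.102 CPM, the count of a gene scaled to a common library total after TMM normalization (trimmed mean of M values). The hepatocyte identity of the preparations was checked on marker genes. The summed level of 10 hepatocyte markers was 102259 to 120737 CPM at 0 h and 70252 to 85166 CPM at 48 h, against sums of at most 392 CPM for 10 endothelial, 175 CPM for 8 stellate, 137 CPM for 10 Kupffer cell, 26.0 CPM for 6 cholangiocyte and 3.92 CPM for 8 leukocyte markers. None of these markers was at 0 in all 6 libraries. All 10 endothelial and 3 of 8 stellate markers fell at 48 h, 2 of 10 Kupffer cell markers and 1 of 2 tested cholangiocyte markers rose, 1 of 10 hepatocyte markers rose and 3 fell, where 21.4% of all genes tested rose and 19.3% fell, and the part of these cells in the results was not tested. In bulk samples, fewer cells of a type and less RNA per cell cannot be told apart.

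Promoter sequence is shown for the 4 genes whose RefSeq promoter window (GRCm38.p6, 250 bases before the start) held the letters of the cell cycle genes homology region (CHR), a short element known from genes transcribed in G2 and mitosis. All 4 were among the 8 of the 10 genes that rose at 48 h, which also include genes without these letters, and 21.4% of all genes tested rose. The CHR was searched as TTTGAA or TTCGAA on both strands. Each sequence is written in the direction of its gene, and capitals mark the CHR letters and, in Ect2, the CCAAT box.
Ect2: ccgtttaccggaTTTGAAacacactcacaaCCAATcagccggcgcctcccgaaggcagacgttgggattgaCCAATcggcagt
Prc1: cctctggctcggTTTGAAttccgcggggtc
Cep55: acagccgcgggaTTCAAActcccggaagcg
Iqgap3: agcggcgggagaTTCAAAactggcaggaga
The Ect2 stretch is chr3:27153922-27154004 on the minus strand, outside all annotated exons. Its CHR letters begin 138 bases before 1 of the 2 RefSeq starts of Ect2 and 114 bases before the other. The Prc1 stretch is chr7:80294434-80294463 on the plus strand and begins the CHR 30 bases before 1 of the 2 starts of Prc1. It overlaps exons of Prc1 and of Rccd1 on the other strand. The Cep55 stretch, chr19:38054996-38055025, and the Iqgap3 stretch, chr3:88082020-88082049, are both on the plus strand and overlap annotated exons of their own genes. They hold the CHR on the opposite strand, where it reads TTTGAA. It begins 33 bases before 1 of the 2 starts of Cep55 and 19 bases before the start of Iqgap3. The Ect2 stretch was printed longer than the others so as to hold its CCAAT boxes, so the stretches cannot be compared for this box. In Prc1 a CCAAT box begins 62 bases before the same start as its CHR and lies outside the printed stretch.

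All 10 genes had RefSeq windows, 14 in total because some genes have several starts. CHR letters were in 5 of the 14 windows (35.7%) and in 17.1% of all 32851 windows. No window of Racgap1 or Anln held them, although both genes rose by more than 5 on the log2 scale, nor did those of Cit and Iqgap1, which also rose, or of Rhoa and Iqgap2. A CCAAT box was in 6 of 14 windows (42.9%), those of Ect2, Racgap1, Prc1 and Iqgap1, and in 33.8% of all windows. An E2F site was searched as the letters TTCCCGC and also as TTGGCGC, with TTCGCGC or otherwise TTGCCGC as further spellings, and such letters were in 2 of 14 (14.3%), in Ect2 and Rhoa, and in 7.89% of all windows. All motifs were searched on both strands, and those of a CCAAT box or E2F site may overlap each other. These matches describe letters in a window and are not binding sites, and windows of 1 gene can overlap.

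Of the 10 genes, 8 were higher at 48 h by the quasi-likelihood test of edgeR (p adjusted after Benjamini and Hochberg), 0 were lower, and Rhoa and Iqgap2 were not called. Across all 17037 genes tested, 40.7% passed an adjusted p under 0.05, with 21.4% higher and 19.3% lower. In each of these 8 genes the lowest 48 h library exceeded the highest 0 h library, as in 27.8% of all genes tested, and in none of the 10 was the order the opposite, as in 25% of all genes tested. The increases fell into separate ranges, with 6 genes (Iqgap3, Racgap1, Anln, Cep55, Prc1 and Ect2) above 5 on the log2 scale, a size reached by 0.939% of all genes tested, and Cit and Iqgap1 below 2. The median log2 fold change was 5.15 over the 10 genes and -0.0033 over all genes tested.

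**Figure D1:**
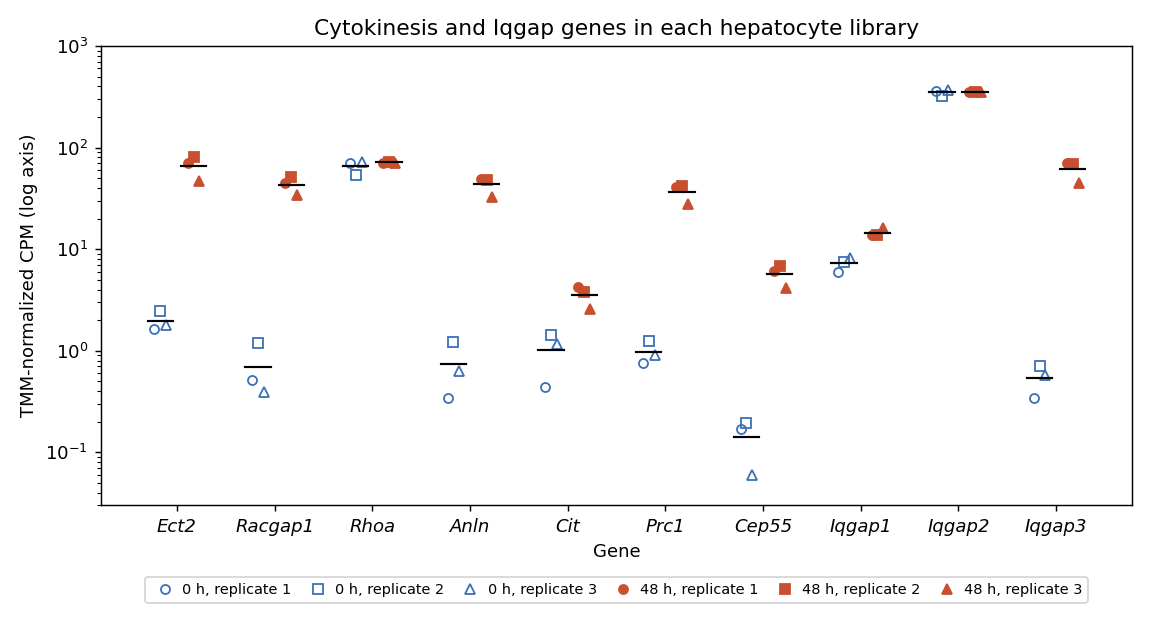
Level of each gene in each library, as CPM normalized by the trimmed mean of M values (TMM) on a log axis, with open blue symbols for 0 h, filled red symbols for 48 h, symbol shapes for replicates and a black line for the mean of 3 libraries. The groups lie apart in 8 genes and overlap in Rhoa and Iqgap2.

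Ect2, the exchange factor that activates RhoA at the cell equator (ENSMUSG00000027699.19, chromosome 3, 27097222 to 27153878, minus strand, GRCm38), was at 1.63, 2.45 and 1.81 CPM at 0 h and at 70.9, 79.8 and 46.4 CPM at 48 h. Every 48 h library was far above every 0 h library, with replicate 3 the lowest among them. The log2 fold change was 5.06 ± 0.24 (SE, n = 3 per time point, edgeR adjusted p = 1.39e-07), a 33.4-fold increase.

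Racgap1, the GTPase-activating subunit of centralspindlin that anchors Ect2 (ENSMUSG00000023015.14, chromosome 15, 99620496 to 99651656, minus strand), was at 0.511, 1.19 and 0.392 CPM at 0 h and at 44.3, 51.3 and 34.0 CPM at 48 h. It rose by 5.95 ± 0.31 on the log2 scale (SE, edgeR adjusted p = 2.82e-07), a 61.8-fold increase. Its partner Kif23, the motor subunit of centralspindlin, rose from 0.403 ± 0.256 to 12.6 ± 4.07 CPM (SD, n = 3), a log2 fold change of 4.95 ± 0.39 (SE). The subunits of this complex therefore rose together, and the difference between their increases was not tested.

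Rhoa, the GTPase on which Ect2 and Racgap1 act (ENSMUSG00000007815.13, chromosome 9, 108306129 to 108337934, plus strand), was at 70.6, 54.1 and 72.1 CPM at 0 h and at 70.7, 72.2 and 71.2 CPM at 48 h. The groups overlapped, and replicate 2 at 0 h was the low value. The log2 fold change was 0.12 ± 0.12 (SE, 95% interval -0.15 to 0.39, edgeR adjusted p = 0.462). Of its exon bases, 4.75% lie opposite exons of Tcta and Gm37401, and reads there cannot be assigned with certainty because no source used here gives a strand setting. Its close relatives both rose, as did 21.4% of all genes tested. Rhoc went from 4.67 ± 0.652 to 16.9 ± 2.79 CPM (SD, n = 3), a log2 fold change of 1.85 ± 0.17 (SE). Rhob went from 22.8 ± 2.70 to 59.7 ± 17.4 CPM, a log2 fold change of 1.39 ± 0.19. They are named as relatives of Rhoa and not for the size of their change.

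Anln, the anillin scaffold of the ring (ENSMUSG00000036777.8, chromosome 9, 22332012 to 22389188, minus strand), was at 0.340, 1.22 and 0.632 CPM at 0 h and at 49.4, 48.2 and 32.4 CPM at 48 h. The 0 h levels rested on 10, 38 and 21 counts. It rose by 5.87 ± 0.32 on the log2 scale (SE, edgeR adjusted p = 3.87e-07), a 58.6-fold increase.

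Prc1, which crosslinks antiparallel microtubules of the central spindle (ENSMUSG00000038943.16, chromosome 7, 80294450 to 80316259, plus strand), was at 0.749, 1.26 and 0.903 CPM at 0 h and at 41.3, 41.4 and 27.9 CPM at 48 h. Its log2 fold change was 5.24 ± 0.23 (SE, edgeR adjusted p = 8.99e-08), a 37.8-fold increase. A share of 11.1% of the exon bases of Prc1 lies opposite exons of Rccd1, which limits how exactly its reads can be assigned.

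Cit, the citron kinase of the ring and midbody (ENSMUSG00000029516.19, chromosome 5, 115845278 to 116008947, plus strand), was at 0.443, 1.42 and 1.17 CPM at 0 h and at 4.25, 3.75 and 2.57 CPM at 48 h. The groups did not overlap, but the lowest 48 h library was 2.57 CPM and the highest 0 h library 1.42 CPM. Its increase of 1.79 ± 0.36 on the log2 scale (SE, 95% interval 0.99 to 2.58, edgeR adjusted p = 0.0028) was the smallest among 7 genes known mainly from dividing cells, called division genes here (Anln, Ect2, Racgap1, Prc1, Cit, Cep55 and Iqgap3). Rhoa, which acts in cytokinesis and in much else, is not in this group, which was formed with earlier results of these data known, and its change of 0.12 was smaller than that of Cit. The upper end of this interval lay below the lower end of the interval of each of the other 6, the lowest of which was 4.51.

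Cep55, the midbody protein that recruits the abscission machinery (ENSMUSG00000024989.15, chromosome 19, 38055011 to 38074423, plus strand), was at 0.170, 0.193 and 0.0602 CPM at 0 h, from 5, 6 and 2 counts, and at 6.15, 6.80 and 4.17 CPM at 48 h. The 0 h levels were near the detection floor, and that of replicate 3 was under its floor of 0.0903 CPM, so the size of the increase is less certain than its direction. No 0 h library reached the 10 counts of the filter, so Cep55 entered the test only through its 48 h libraries. The fitted log2 fold change was 5.32 ± 0.36 (SE, 95% interval 4.51 to 6.13, edgeR adjusted p = 2.01e-06).

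Iqgap1, a scaffold of actin and of several kinases (ENSMUSG00000030536.10, chromosome 7, 80711583 to 80825974, minus strand), was at 5.96, 7.48 and 8.25 CPM at 0 h and at 13.7, 13.6 and 16.3 CPM at 48 h. The groups did not overlap, and replicate 3 was the highest of its group at both time points. The log2 fold change was 1.01 ± 0.15 (SE, edgeR adjusted p = 0.00051), a 2.01-fold increase. Between the same libraries, all 10 endothelial markers fell, as did 19.3% of all genes tested (summed level 256 to 392 CPM at 0 h and 185 to 206 CPM at 48 h). Of 10 Kupffer cell markers, 2 rose and 8 were not called, a share of 20% near the 21.4% of all genes tested that rose, and their summed level overlapped between the time points (78.3 to 118 CPM at 0 h and 112 to 137 CPM at 48 h). The part of these cells in the change of Iqgap1 was not tested.

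Iqgap2, the Iqgap protein best known from liver (ENSMUSG00000021676.9, chromosome 13, 95627177 to 95891922, minus strand), was at 360, 324 and 372 CPM at 0 h and at 354, 349 and 350 CPM at 48 h. The groups overlapped fully, and the 48 h libraries varied by 0.641% (coefficient of variation). The log2 fold change was -0.0042 ± 0.12 (SE, 95% interval -0.26 to 0.26, edgeR adjusted p = 0.981).

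Iqgap3, the family member tied to dividing cells (ENSMUSG00000028068.14, chromosome 3, 88081971 to 88121048, plus strand), was at 0.340, 0.709 and 0.572 CPM at 0 h and at 69.7, 69.0 and 44.9 CPM at 48 h. It rose by 6.80 ± 0.26 on the log2 scale (SE, 95% interval 6.22 to 7.39, edgeR adjusted p = 5.06e-08), a 112-fold increase that ranked 22 of the 17037 genes tested. The 95% intervals of the 3 Iqgap genes did not overlap, with Iqgap2 around 0, Iqgap1 between 0.67 and 1.35, and Iqgap3 above 6.22. The change of Iqgap3 was the one of the 3 that passed 5 on the log2 scale, as did those of Ect2, Racgap1, Anln, Prc1 and Cep55.

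**Figure D2:**
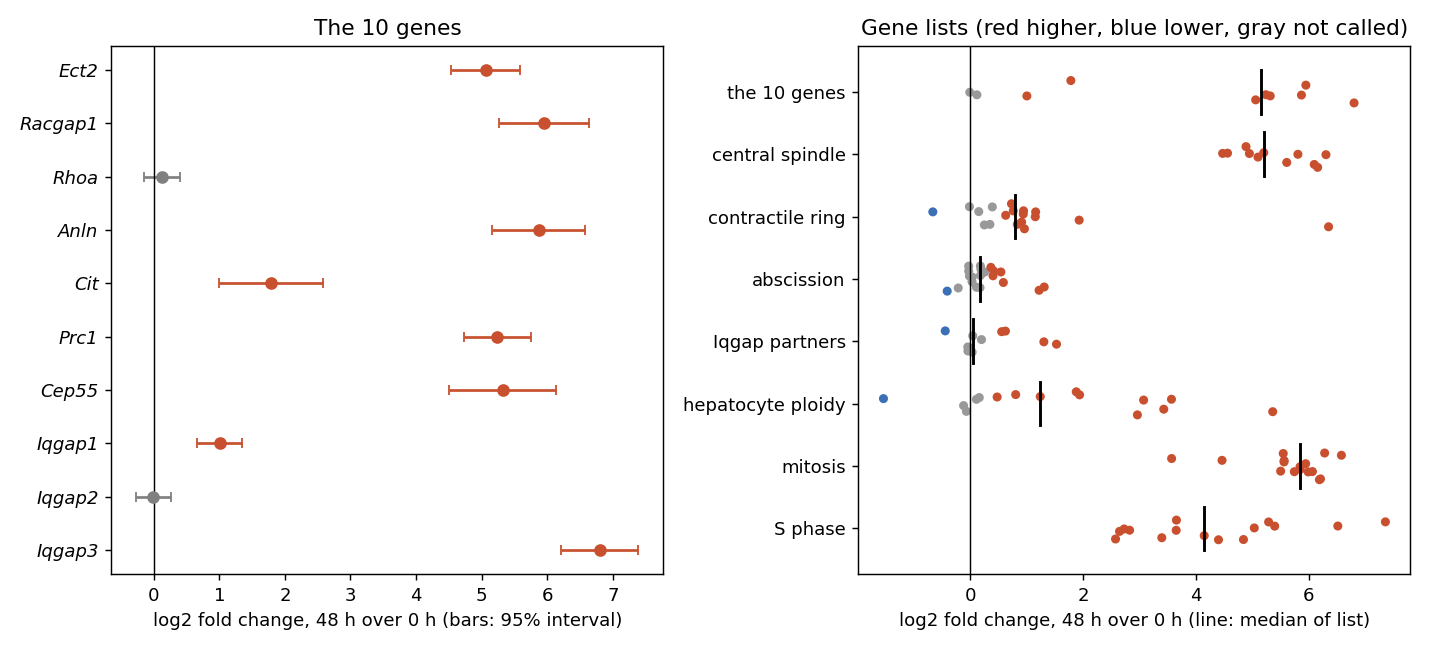
Left, log2 fold change of each gene at 48 h over 0 h with its 95% interval (red, called higher; gray, not called). Right, the log2 fold changes of the tested genes of each list, with a black line at the list's median, for example 5.15 for the 10 genes, 5.20 for the central spindle genes and 0.18 for the abscission genes.

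Within a library the 3 Iqgap genes were compared per kilobase of annotated exon (5771 bases for Iqgap2, 16538 for Iqgap1 and 11384 for Iqgap3). Iqgap2 held 99.2% ± 0.151 of their summed level at 0 h and 90.7% ± 1.56 at 48 h (SD, n = 3). Iqgap3 went from 0.0476%, 0.1098% and 0.0774% in the 0 h libraries to 8.97%, 8.99% and 6.01% at 48 h, and Iqgap1 from 0.573%, 0.797% and 0.768% to 1.22%, 1.22% and 1.501%. Iqgap2 therefore remained the predominant Iqgap transcript in every library, and the order of Iqgap1 and Iqgap3 was opposite at the 2 time points in every library. Divided by the length of the longest coding transcript instead, a choice added after the data were seen, the mean share of Iqgap3 at 48 h was 14.4% and that of Iqgap2 82.9%.

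The ratio of Iqgap1 to Iqgap2 needs no scaling between libraries. On the log2 scale per kilobase of exon it was -7.44, -6.96 and -7.01 at 0 h and -6.20, -6.20 and -5.95 at 48 h, so all 48 h libraries were above all 0 h libraries. The difference of 1.02 had p = 0.1 in a two-sided exact permutation test, which is the smallest p that 3 libraries against 3 can give.

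**Figure D3:**
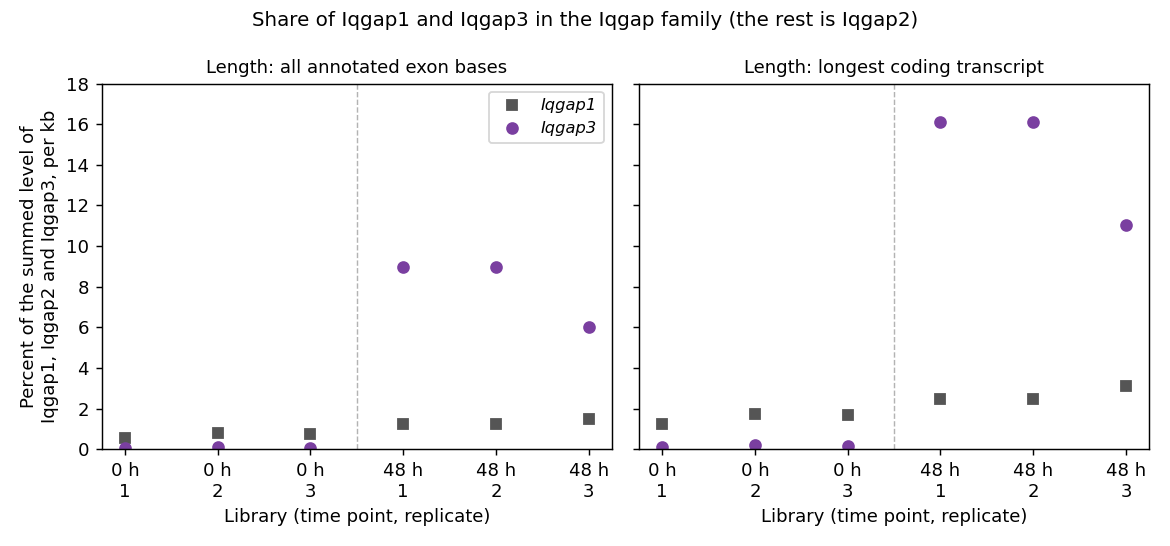
Share of Iqgap1 (gray squares) and Iqgap3 (purple circles) in the summed level of the 3 Iqgap genes in each library, in percent per kilobase of all annotated exon bases (left) or of the longest coding transcript (right). Iqgap3 lies below Iqgap1 in each 0 h library and above it in each 48 h library.

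Per kilobase of exon, the order of the 10 levels at 0 h was Iqgap2 (61.0 ± 4.29 CPM per kilobase, SD, n = 3), Rhoa (8.75 ± 1.33), Iqgap1 (0.437 ± 0.0706), Ect2 (0.365 ± 0.0797), Prc1, Racgap1, Anln, Cit, Cep55 and Iqgap3 (0.0475 ± 0.0164). Iqgap1 and Ect2 overlapped, and so did all neighbours from Prc1 down. At 48 h the order was Iqgap2 (60.8 ± 0.390), Ect2 (12.2 ± 3.22), Rhoa (9.52 ± 0.103), Racgap1 (6.11 ± 1.23), Iqgap3 (5.38 ± 1.24), Anln (4.78 ± 1.05), Prc1 (4.48 ± 0.943), Cep55 (1.96 ± 0.471), Iqgap1 (0.880 ± 0.0907) and Cit (0.214 ± 0.0524). Ect2 and Rhoa overlapped, as did the neighbours from Racgap1 to Prc1. Prc1, Racgap1, Anln, Cep55 and Iqgap3 thus stood below Iqgap1 at 0 h and above it at 48 h, while Cit stood below it at both. Per kilobase of the longest coding transcript, Rhoa (32.5 CPM per kilobase) was above Ect2 (16.1) at 48 h, and Cep55 (2.07 ± 0.496) and Iqgap1 (1.95 ± 0.201) overlapped.

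The 7 division genes shared their spread between libraries. Replicate 3 at 48 h was the lowest of its group in 7 of the 7 division genes, at 70.6% (Ect2) to 78.7% (Racgap1) of the 48 h mean, while it was at 99.8% for Rhoa, 99.7% for Iqgap2 and 111.9% for Iqgap1. It was also the lowest in 16 of 16 mitosis genes and in 11 of 11 central spindle genes, and in 34.9% of all genes tested. Among the 0 h libraries, replicate 2 was the highest in 7 of 7 division genes, in 14 of 16 mitosis genes, in 1 of 15 S phase genes and in 36.8% of all genes tested. That library also held the highest summed endothelial (392 CPM) and stellate (175 CPM) markers of the 6. Replicate 3 at 0 h held nearly the same sums (385 and 161 CPM) and was the highest in 0 and the lowest in 2 of the 7 division genes. The part of those cells in these levels was not tested.

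**Figure D4:**
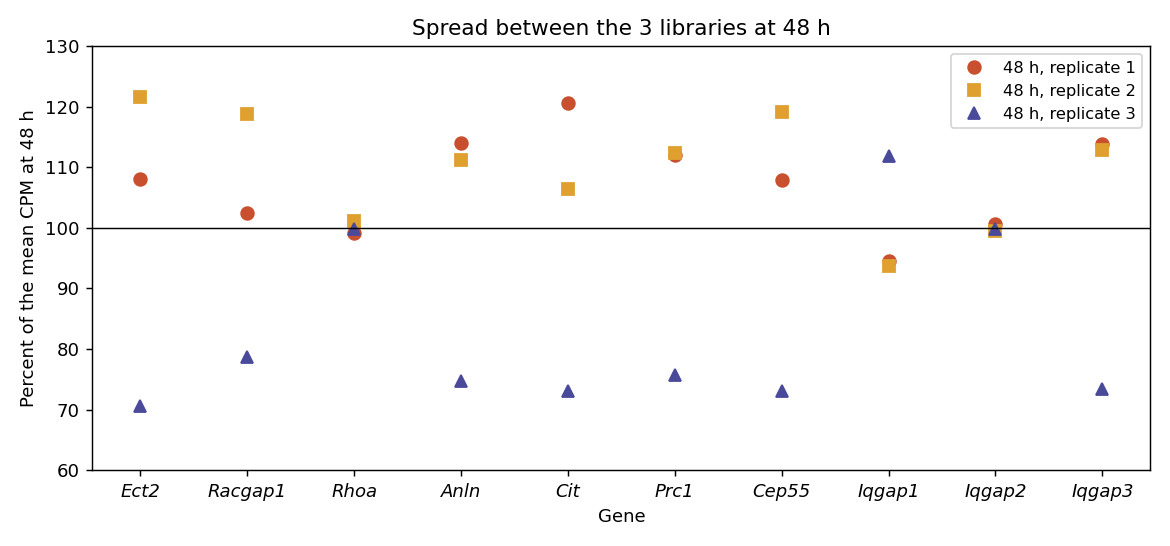
Level of each gene in each 48 h library as a percentage of the mean CPM of the 3 libraries at 48 h, with the black line at 100%. Replicate 3 lies between 70.6% and 78.7% for the 7 division genes and at 99.8%, 99.7% and 111.9% for Rhoa, Iqgap2 and Iqgap1.

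The surrounding pathway was read from lists drawn from general knowledge of the field, with edgeR's test across all genes. The lists were chosen with earlier results of these data known, so their tallies are not independent of the data. Of 11 central spindle and cleavage signalling genes, 11 were higher, against 21.4% of all genes tested, with a median log2 fold change of 5.20 and a range from 4.48 to 6.31. Kif14, with 2, 6 and 8 counts at 0 h, passed the filter of 10 counts only through the 48 h libraries, where it was high. In each fit without a 48 h library, 10 of these genes were higher. Aurkb, the kinase of the chromosomal passenger complex, rose by 6.31 ± 0.27 (log2, SE) and Plk1, the kinase that licenses the binding of Ect2 to Racgap1, by 6.16 ± 0.26. At the low end, Incenp, the scaffold of the passenger complex, rose by 4.56 ± 0.22 and Arhgap11a, a GTPase-activating protein, by 4.48 ± 0.32.

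Of 18 contractile ring genes, 12 were higher (66.7%, against 21.4% of all genes tested), 1 was lower (5.56%, against 19.3%) and the median was 0.80. The formin Diaph3 rose by 6.35 ± 0.28 (log2, SE), from 0.488 ± 0.254 to 39.7 ± 6.74 CPM (SD), whereas its paralog Diaph1 was at 203 ± 11.02 and 201 ± 8.17 CPM (log2 fold change -0.01 ± 0.11, edgeR adjusted p = 0.948). Sept6, a septin of the ring, rose by 1.93 ± 0.44 from a level of 0.232 ± 0.0855 CPM. Sept9, the septin associated with abscission, fell by 0.66 ± 0.20 (edgeR adjusted p = 0.0213), a call lost without replicate 1 or 3 at 0 h or replicate 3 at 48 h (adjusted p = 0.0577 to 0.0799) and with scaling by library size only. Its groups overlapped, at 144, 81.2 and 146 CPM at 0 h and 79.3, 82.4 and 73.1 CPM at 48 h.

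Of 20 abscission genes, mainly the ESCRT-III proteins that cut the midbody bridge and the Rab11 traffic that feeds it, 7 were higher (35%, against 21.4% of all genes tested) and 1 was lower (5%, against 19.3%), with a median of 0.18. The log2 fold change of Cep55, which recruits ESCRT, was 5.32. Chmp4c, the ESCRT-III subunit of the abscission checkpoint, rose by 1.31 ± 0.18 (log2, SE) and the GTPase Arf6 by 1.22 ± 0.13. Chmp7 had a log2 fold change of -0.21 ± 0.11 that was not called. Rab11fip3 fell by 0.40 ± 0.12 (edgeR adjusted p = 0.0231), a call lost without replicate 1 at 0 h or replicate 2 or 3 at 48 h (adjusted p = 0.0536 to 0.105) and with scaling by library size only.

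Of 11 binding partners of Iqgap proteins, 4 were higher (36.4%, against 21.4% of all genes tested), 1 was lower (9.09%, against 19.3%) and the median was 0.05, near that of all genes tested. The calmodulin genes Calm2 and Calm3 rose by 1.53 ± 0.12 and 1.31 ± 0.16 (log2, SE). Cdh1, the adhesion protein E-cadherin, fell by 0.44 ± 0.15 (edgeR adjusted p = 0.039), a call lost in 4 of the 6 fits that leave out a library (adjusted p = 0.0831 to 0.16) and with scaling by library size only.

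Genes tied to hepatocyte ploidy were read because failed cytokinesis is how hepatocytes gain genomes. Of 15 such genes, 10 were higher (66.7%, against 21.4% of all genes tested), 1 was lower (6.67%, against 19.3%) and the median was 1.24. The list holds genes that act for and against polyploidy: the atypical repressors E2f7 and E2f8, which favour polyploid hepatocytes, rose by 3.57 ± 0.27 and 1.88 ± 0.14 (log2, SE), and E2f1, which opposes them, rose by 2.97 ± 0.15. Ccne1, the cyclin that drives entry into S phase, rose by 5.36 ± 0.21. Slc25a34, a mitochondrial carrier, fell by 1.53 ± 0.23, and Cradd, a PIDDosome adaptor that acts when centrosomes are in excess, was not called at -0.11 ± 0.15. The other PIDDosome genes of the list, Pidd1 and Casp2, named after their values were seen, rose by 1.94 and 1.24. Ploidy itself was not measured in these libraries.

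The 7 division genes were set against 16 mitosis genes within each library, as mean log2 CPM. All 7, a group without Rhoa, and all 16 were called higher, against 21.4% of all genes tested, the mitosis genes with a median of 5.85 and a range from 3.57 (Aurka) and 4.47 (Smc2) to 6.28 (Mki67) and 6.58 (Ttk). Cep55 of the 7 and Bub1, Ttk, Ncapg and Ndc80 of the 16 had under 10 counts in every 0 h library. They passed the filter only through the 48 h libraries, where they were high, so these tallies are partly set by the filter. Ttk had 5, 8 and 9 counts at 0 h. The mean of the 7 genes went from -0.46 ± 0.495 to 4.60 ± 0.348 and that of the mitosis genes from -0.47 ± 0.342 to 5.08 ± 0.290 (SD, n = 3). The 7 genes less the mitosis genes thus went from 0.01 ± 0.18 to -0.47 ± 0.0613, a change of -0.48. This change rested on Cit: without it, a choice made after the data were seen, the change was 0.05, and with medians in place of means it was 0.35. The difference between the lists was not tested.

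The genes whose levels followed each Iqgap gene most closely were taken by Pearson's r over the 6 libraries, which fall into 2 groups, so that a shared difference between time points alone gives a high r. For Iqgap3 they were Cdk1, Kif20a and Plk1 (r = 0.9998 to 0.9997), all of which act in mitosis. For Iqgap1 they were Nudt5, Gm45817 and Flna (r = 0.9955 to 0.9941), Flna being an actin crosslinker. For Iqgap2 they were Mrpl27, Pafah2 and Them7 (r = 0.9971 to 0.9858), which, like Iqgap2, had log2 fold changes within 0.05 of 0.

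The calls of the 10 genes were kept under every tool, filter and normalization tried on the 6 libraries. The direction of small changes was not always kept. Scaling by library size only turned the sign of Iqgap2, Diaph1 and Cradd, moved the median of all genes by 0.20 on the log2 scale and changed the split of calls from 3638 higher and 3288 lower to 5308 higher and 2110 lower.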

How the data were processed

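The authors deposited, for each of 6 hepatocyte libraries, raw counts of reads per gene with no normalization. Per the submitters' processing notes, the tools were FastQC 0.11.5, Trim Galore 0.6.4, STAR 2.6, HTSeq 0.12.4 and DESeq2, with mm10. The counting mode and strand setting are not given in the sources used here. Lines for reads on no feature (24.3 to 32.7% of the total of a count table, with all such lines included) or on ambiguous features (4.27 to 5.29%) were left out. All 55450 identifiers matched GENCODE M21, and where a symbol had several records (2 symbols), the protein-coding record with most exon bases was used, so the count of Myl12b is uncertain.

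Time points and replicates were taken from the sample labels, and the libraries are separate preparations. The main test was the quasi-likelihood test of edgeR 4.0.16 (R 4.3.3) with TMM scaling and a model of time alone. A gene entered it when 3 or more libraries held 10 or more counts (17037 genes), and an adjusted p (Benjamini-Hochberg) under 0.05 was a call. The standard error was the size of the log2 fold change divided by the square root of F. CPM and CPM per kilobase used TMM library sizes, and list means used log2 CPM with a prior count of 2. Floors of 3 counts cover counting error only. On simulated counts, the share of false calls was above the nominal level.

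The members and lists were chosen with earlier results of these data known. Named list genes are the 2 largest and 2 smallest changes of each list, with Kif23, Rhob, Rhoc, E2f1, E2f7 and E2f8, and for each Iqgap gene the 3 genes of highest r, and some items under this rule are not reported here. Alternatives were DESeq2 1.42.0, limma 3.58.1 (voom), other normalizations and filters, the replicate block and leaving out each library.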

Additional observations from a re-analysis of the deposited data

How the results depend on the processing

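With all 6 libraries, the 8 genes called higher stayed so under every alternative (highest adjusted p = 0.0055, Cit). Without a library the highest adjusted p was 0.0117 (Cit), and Cep55 was below the count filter in the 3 fits without a 48 h library, so the number of genes called was 7 to 8. With library size only, 2110 genes were lower, 12 abscission genes were higher, and 0 contractile ring, abscission and Iqgap partner genes were lower. Leaving out a library gave 0 to 1 lower contractile ring genes, 0 to 1 abscission genes and 0 to 1 Iqgap partners. Among small changes, library size only turned the sign of Iqgap2 (0.20), Diaph1 (0.19) and Cradd (0.0915). Leaving out a library gave Rhoa -0.0088 to 0.19, Iqgap2 -0.0694 to 0.0273 and Diaph1 -0.0642 to 0.0278. The changes in share were 0.6005 points for Iqgap1, -8.51 for Iqgap2 and 7.91 for Iqgap3, and without division by length they were 1.40, -15.5 and 14.1 and per longest coding transcript 1.10, -15.4 and 14.3. The 7 genes less mitosis genes changed by 0.35 with medians and by 0.0512 without Cit. Same-numbered libraries did not deviate together (r = 0.0335, -0.0674 and -0.138), which with 3 libraries per time point cannot exclude a pairing. The replicate block gave 3237 higher and 2884 lower genes, with 87.1% of the calls kept and 8 of the 10 genes higher. The depth limits the 0 h levels of Cep55, at 2 to 6 counts. The cause of these shifts was not tested.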

Other observations

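S phase genes, which encode replication proteins, were set beside the 7 division genes in each library. Of 15 such genes, 15 were higher at 48 h, against 21.4% of all genes tested, with a median log2 fold change of 4.15. Their mean log2 CPM was 5.44, 5.46 and 5.31 in the 48 h libraries, and that of the 7 division genes 4.78, 4.83 and 4.203. Replicate 3 at 48 h was the lowest in 11 of 15 S phase genes and in 7 of 7 division genes, against 34.9% of all genes tested. Replicate 2 at 0 h was the highest in 1 and the lowest in 7 of 15 S phase genes, against 36.8% and 40.1% of all genes tested. The 7 division genes less the S phase genes were -1.96, -0.90 and -1.98 at 0 h and -0.66, -0.63 and -1.11 at 48 h on the log2 scale, so replicate 3 at 48 h was below replicate 2 at 0 h. The difference between the libraries was not tested, since it is between single libraries.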
